A study of Mus musculus with 9 samples.

Results

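The Zscan4 family of the mouse was taken as every gene whose symbol begins with Zscan4 among the transcripts of the deposited tables, matched by Ensembl identifier to the GENCODE annotation. It comprised 9 of 35580 genes and 12 of 115270 transcripts: Zscan4a, Zscan4b, Zscan4c, Zscan4d, Zscan4e, Zscan4f, Zscan4-ps1, Zscan4-ps2 and Zscan4-ps3. The symbol alone decided membership. The samples were 9 clones isolated from a bulk culture of E14, an embryonic stem cell line of the mouse, because their lipid droplets differed in size. All 9 were grown alike, on gelatin with serum and leukaemia inhibitory factor, and carry no stated genetic change or treatment. The labels give no clone its droplet size, so each clone is 1 sample without a group or a replicate, and no test between groups was made. Each library came from a line expanded from 1 clone, so a value describes a clonal culture at 1 harvest.

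Zscan4 genes encode nuclear proteins with a SCAN domain, which pairs such proteins, and zinc fingers that bind DNA. They are switched on at zygotic genome activation in the early cleavage embryo and, in embryonic stem cell cultures, in short bursts in a small fraction of cells that resemble that stage, called 2-cell-like cells. The factor Dux is known to start this programme, Dppa2 and Dppa4 to act upstream of Dux, and Zscan4 to be linked to telomere lengthening by recombination. The copies arose by tandem duplication and are nearly identical in sequence, which limits how far their reads can be told apart.

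The genes lie in a cluster of 820 kb on mouse chromosome 7 (GRCm38). From the proximal end the order is Zscan4a at chr7:10794242-10799057 (minus strand), Zscan4b at chr7:10900740-10905050 (minus), Zscan4c at chr7:11005745-11010547 (plus), Zscan4-ps1 at chr7:11065139-11069691 (minus), Zscan4d at chr7:11161374-11166159 (minus), Zscan4e at chr7:11306378-11310682 (minus), Zscan4f at chr7:11397915-11402318 (plus), Zscan4-ps2 at chr7:11514310-11519111 (plus) and Zscan4-ps3 at chr7:11609308-11614112 (plus). GENCODE types Zscan4a as an unprocessed pseudogene and the others as protein coding, although their names mark Zscan4-ps1, Zscan4-ps2 and Zscan4-ps3 as pseudogenes. Zscan4c, Zscan4d and Zscan4f are the members usually followed in stem cells, and each has a coding sequence of 1518 bases without the stop codon. Only 38 of these positions (2.50%) differed among the 3, and the longest run without a difference was 233 bases. Zscan4c and Zscan4f were 99.6% identical over the coding sequence, whereas Zscan4d was 97.7% identical to each of them. The stretch of 60 coding bases below, which starts at coding base 1032 and lies in exon 4 of 4, is shown because it holds 6 of the differing positions, close together. It is taken from the GENCODE M21 transcripts (GRCm38, 5′ to 3′ on the gene's own strand) at chr7:11009507-11009566 (plus) for Zscan4c, chr7:11162351-11162410 (minus) for Zscan4d and chr7:11401700-11401759 (plus) for Zscan4f, with capitals at the positions where the 3 are not all the same.
Zscan4c: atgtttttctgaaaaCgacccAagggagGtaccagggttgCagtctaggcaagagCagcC
Zscan4d: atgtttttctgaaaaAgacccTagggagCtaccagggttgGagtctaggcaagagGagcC
Zscan4f: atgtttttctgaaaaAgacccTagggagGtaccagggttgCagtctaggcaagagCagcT
The promoter windows, 250 bases before to 50 after the annotated start, are given from RefSeq (GRCm38.p6), which matched 4 of the 9 members: Zscan4b, Zscan4c, Zscan4d and Zscan4f. They are shown for the 3 well-followed members, at chr7:11005495-11005794 (plus) for Zscan4c, chr7:11166099-11166398 (minus) for Zscan4d and chr7:11397665-11397964 (plus) for Zscan4f, with capitals marking the letters TATAAA.
Zscan4c: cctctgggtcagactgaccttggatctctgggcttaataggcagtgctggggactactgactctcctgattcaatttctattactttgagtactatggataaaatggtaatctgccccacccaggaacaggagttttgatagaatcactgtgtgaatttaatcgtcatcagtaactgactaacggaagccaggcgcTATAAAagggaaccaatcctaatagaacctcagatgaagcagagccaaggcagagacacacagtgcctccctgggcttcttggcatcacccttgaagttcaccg
Zscan4d: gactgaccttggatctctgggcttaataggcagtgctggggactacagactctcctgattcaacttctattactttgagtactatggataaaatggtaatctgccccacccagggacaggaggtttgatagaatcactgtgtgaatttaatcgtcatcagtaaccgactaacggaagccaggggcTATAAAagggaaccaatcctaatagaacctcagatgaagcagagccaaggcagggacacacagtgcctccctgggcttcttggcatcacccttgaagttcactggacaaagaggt
Zscan4f: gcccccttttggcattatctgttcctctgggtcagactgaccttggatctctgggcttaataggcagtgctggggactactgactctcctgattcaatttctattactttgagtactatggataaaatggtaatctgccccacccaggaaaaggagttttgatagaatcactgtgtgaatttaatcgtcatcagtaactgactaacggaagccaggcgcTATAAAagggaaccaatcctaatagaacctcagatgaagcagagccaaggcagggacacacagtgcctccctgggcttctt
Aligned over the bases they share, the 4 windows were 95.3 to 99.3% identical, the closest pair being Zscan4c and Zscan4f. TATAAA, searched on both strands, was present in 4 of 4 windows, with its first base 54 bases before the start in Zscan4c, 65 in Zscan4d and 31 in both Zscan4b and Zscan4f. Of 32851 promoter windows of all genes, 13.6% held these letters on either strand.

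Because of this likeness, the assignment of a read to a member depends on few bases. kallisto, the program that made the deposited estimates, works on stretches of 31 bases by default, and the share of such stretches found in no other gene of the tables was low for most transcripts. It was 8.46% for Zscan4c, 35.0% for Zscan4d and 2.39% for the major transcript of Zscan4f. The transcripts of Zscan4b had 3.19 and 4.92%, those of Zscan4e 6.21 and 4.72%, Zscan4-ps2 6.81%, Zscan4-ps3 18.9%, Zscan4a 23.3%, the minor transcript of Zscan4f 24.2% and Zscan4-ps1 36.1%. Thus Zscan4d, Zscan4-ps1, Zscan4a and Zscan4-ps3 had the most sequence of their own, and Zscan4f, Zscan4b and Zscan4c had little. Against genes outside the family the separation was better. Per transcript, 7.67% (Zscan4d) to 40.3% (minor transcript of Zscan4f) of stretches also occurred there, against 62.3 to 97.5% in other members. Pooled over the family, 332 of 6572 distinct stretches (5.05%) also occurred elsewhere, and 233 of these were in Gm45551, a pseudogene inside the cluster. The summed family is therefore the leading measure here, and values of single members are uncertain.

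**Figure D1:**
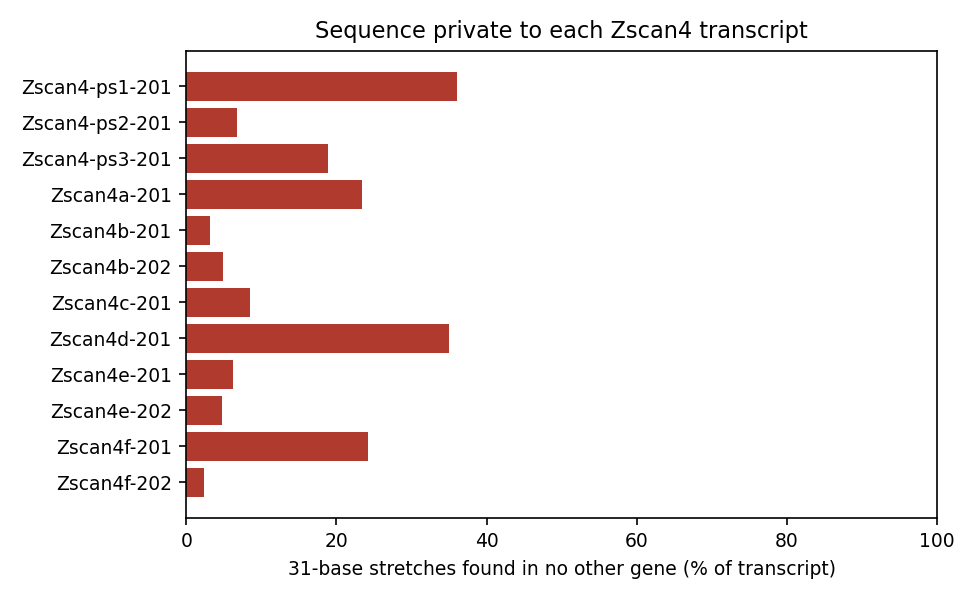
Share of 31-base stretches of each Zscan4 transcript that no other gene of the tables holds, in percent, drawn as bars from 0. Zscan4-ps1 and Zscan4d stand highest at 36.1 and 35.0%, and the major Zscan4f transcript is lowest at 2.39%.

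Total estimated counts per clone ranged from 10783718 in clone 1 to 14309662 in clone 6, and levels are CPM, the standard scaling of counts to library size, here with TMM (trimmed mean) factors. An undetected gene may still have had up to 3 counts, or 0.209 to 0.293 CPM depending on the clone. The stem cell label was checked against 10 marker genes, all with a mean of 1 CPM or more, among them the pluripotency factors Pou5f1 at 851 to 1289 CPM, Sox2 at 236 to 301 CPM and Nanog at 249 to 537 CPM. All 3 were lowest in clone 11, as were 6 of the 10 markers, beside 14.7% of all genes. The 10 markers summed to 4301 CPM in clone 11, 4573 in clone 10 and between 5742 and 6386 elsewhere, and the part of this in the Zscan4 levels was not tested. The summed fibroblast markers stood at 64.8 CPM in clone 11, at 55.8 in clone 10 and between 7.47 and 22.5 in the other 7 clones. Collagen genes made up most of this: Col1a1 was at 42.5 CPM in clone 11, 33.4 in clone 10 and 0.656 to 7.17 elsewhere, Col1a2 at 7.90 in clone 11 and 8.76 in clone 10, and Col3a1 at 4.40 in clone 11 and 4.20 in clone 10. Lum, Dcn and Postn stayed at or below 0.0762, 0.629 and 0.489 CPM. Thy1 and Pdgfra did not follow the collagen genes. Thy1 was highest in clone 4 at 10.4 CPM, with 7.54 in clone 11 and 7.39 in clone 10. Pdgfra was highest in clone 6 at 2.34 CPM, with 1.33 in clone 11 and 1.88 in clone 10. Of these 8 markers 5 had a mean of 1 CPM or more, and their part in the Zscan4 levels was not tested. Clone 4, next to clone 11 in Zscan4 level, was at 22.5 CPM. Primitive endoderm markers summed to 3.57 to 6.05 CPM. Of 8 genes taken to define the 2-cell-like state, Zscan4c, Zscan4d and Zscan4f had a mean of 1 CPM or more, while Zfp352 reached 0.908 CPM at most, Usp17lc 0.851, Tcstv3 0.450, Duxf3 0.149 and Tcstv1 0.0975. Among these 8 the label therefore rests on the Zscan4 genes themselves. Intervals and limits below cover counting error only, with the rounded estimates treated as observed counts. They leave out the variation between cultures of 1 clone and the split of reads between copies. Reads without molecular identifiers are also not independent molecules, so the intervals may be too narrow.

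Zscan4 RNA was detected in every clone and differed severalfold between them. Clone 11 had 25.3 CPM over the whole family (363 estimated counts, exact 95% Poisson interval 22.8 to 28.1 CPM), clone 4 had 18.3 CPM (240 counts, 16.1 to 20.8), and clone 10 had 15.7 CPM (217 counts, 13.7 to 18.0). Clone 6 had 13.6 CPM (195 counts, 11.8 to 15.7), clone 1 had 10.4 CPM (107 counts, 8.55 to 12.6), and clone 14 also had 10.4 CPM (143 counts, 8.79 to 12.3). Clone 13 had 8.90 CPM (118 counts, 7.38 to 10.7), clone 8 had 7.11 CPM (100 counts, 5.81 to 8.68), and clone 17 had 4.0 CPM (56 counts, 3.04 to 5.23). Clone 11 thus stood at the top and clone 17 at the bottom, with the others spread between them and no gap that split the clones into sets. The level in clone 11 was 6.34 times that in clone 17 (exact 95% interval 4.75 to 8.51), and the range over the 9 clones, highest minus lowest, was 2.62 on the log2 scale. Without clone 17 the fold was 3.56 (clone 11 over clone 8) and the range 1.81. In these bulk cultures, more cells in the 2-cell-like state and more Zscan4 RNA per such cell cannot be told apart.

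**Figure D2:**
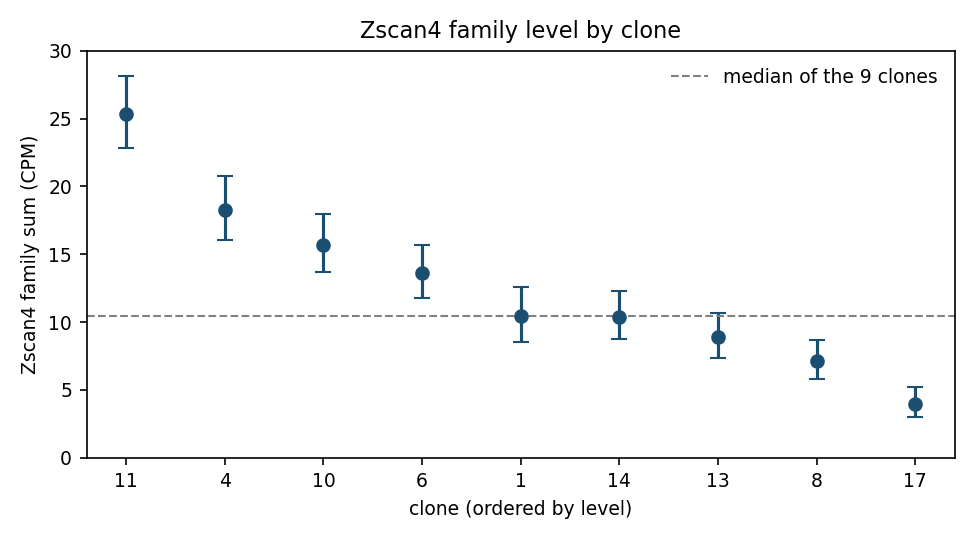
Summed Zscan4 level in CPM for each of the 9 clones, ordered from highest to lowest, with exact 95% Poisson intervals as bars. Clone 11 lies at 25.3 CPM, above the interval of every other clone, and clone 17 at 4.0 CPM, below all others.

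Of the 36 pairs of clones, 30 had a fold whose counting interval excluded 1. Between neighbours in the order this held for 3 of 8 pairs: clone 11 over clone 4 at 1.39-fold (1.17 to 1.64), clone 6 over clone 1 at 1.30-fold (1.02 to 1.67) and clone 8 over clone 17 at 1.78-fold (1.27 to 2.51). For clone 4 over clone 10 the fold was 1.16 (0.965 to 1.41), for clone 10 over clone 6 it was 1.16 (0.948 to 1.41), and for clone 13 over clone 8 it was 1.25 (0.948 to 1.65). Clone 1 over clone 14 was 1.00 (0.772 to 1.29), and clone 14 over clone 13 was 1.17 (0.910 to 1.51). The order of these neighbours was thus not resolved at this depth, while clones farther apart in the order were told apart, except clones 1 and 13. In TPM, which scales each transcript by its length as well as the library by its total, the family stood at 21.4 in clone 11, 7.77 in clone 14 as the median and 2.73 in clone 17. Unresolved neighbours changed places in TPM, with clone 10 at 12.7 and clone 4 at 12.3, and with clones 14 and 13 at 7.77 and 7.34 and clone 1 at 6.88. For scale, on the same per-length measure Pou5f1 averaged 1237 TPM, Nanog 246 TPM and Sox2 197 TPM over the clones.

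The width of this spread can be read against all genes. Among 13378 genes averaging at least 1 CPM, 1059 (7.92%) spanned at least 2 log2 units over the clones and 4720 (35.3%) at least 1, and the median gene spanned 0.78. A range as wide as that of the Zscan4 family, 2.62, was reached by 477 of these genes (3.57%), and by 80 (2.27%) of the 3527 genes whose mean level lay within 2-fold of the family's. The families of other genes were not summed, so this sets a sum over 9 copies beside single genes.

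Zscan4f, taken as assigned, carried 28.7% of the family's counts over all clones, Zscan4c 16.4%, Zscan4a 11.3%, Zscan4-ps2 11.3%, Zscan4d 9.53%, Zscan4e 9.32%, Zscan4-ps3 6.87%, Zscan4-ps1 4.35% and Zscan4b 2.27%. Zscan4c, Zscan4d and Zscan4f together made up 45.6% of the family in clone 13, the lowest, 66.3% in clone 1, the highest, and 54.6% over all clones. A large part of the assigned signal thus lay outside the 3 members usually followed. The mean passed 1 CPM for 6 of the 9 members, namely Zscan4a, Zscan4c, Zscan4d, Zscan4e, Zscan4f and Zscan4-ps2, and did not for Zscan4b, Zscan4-ps1 and Zscan4-ps3. The log2 range was 1.90 for Zscan4-ps1, the smallest, and 3.51 for Zscan4f, the largest. The highest clone was clone 11 for all 9 members, as it was for 15.0% of all genes, and the lowest was clone 17 for 3 of them, Zscan4a, Zscan4f and Zscan4-ps2. In clone 4 all 9 members were above their own median over clones, as were 45.1% of all genes, and in clone 10 it was 8 of 9, beside 42.7%. In clone 8 and in clone 17, 8 of 9 were below, beside 46.7% and 44.5% of all genes. The members share most of their sequence, and reads that fit several of them are split between them. The 9 are thus not separate observations, and their agreement adds little to the order of the family sum. The shares of all genes are given for scale only and do not show how unusual these counts of members are.

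Zscan4f was at 5.67 CPM in clone 11, 5.31 in clone 10, 5.19 in clone 6, 4.30 in clone 4, 3.87 in clone 1, 3.21 in clone 14, 3.02 in clone 13, 1.93 in clone 8 and 0.360 in clone 17. Clones 11, 10 and 6 lay close together, and clone 17 stood far below the rest, 15.7-fold below clone 11 (exact 95% interval 6.48 to 49.8). Zscan4c was at 4.79 CPM in clone 11, 3.13 in clone 4, 2.12 in clone 1, 2.11 in clone 10, 1.99 in clone 6, 1.66 in clone 14, 1.37 in clone 8, 1.10 in clone 17 and 0.392 in clone 13. Its lowest estimate was in clone 13 rather than clone 17, on 5.19 and 15.3 counts, which does not resolve these 2 clones. Clone 11 was 12.2-fold above clone 13 (5.21 to 40.6). Zscan4d was at 2.89 CPM in clone 11, 2.52 in clone 4, 1.42 in clone 6, 1.40 in clone 10, 0.920 in clone 1, 0.650 in clone 13, 0.475 in clone 17, 0.358 in clone 8 and 0.194 in clone 14. Here the bottom clone was clone 14, 14.9-fold below clone 11 (4.18 to 66.1).

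The 3 members thus had the same top clone, while their lowest estimates fell in 3 different clones, not resolved for Zscan4c or Zscan4d. The share of Zscan4f in the family was lowest in clone 17, at 9.01%, where that of Zscan4c was highest, at 27.6%, and the share of Zscan4f was highest in clone 6, at 38.2%, while that of Zscan4c was lowest in clone 13, at 4.40%. Since these are the pair with 99.6% identical coding sequence, their counts were also added together. The sum was 10.5 CPM in clone 11, 7.42 in clones 4 and 10, 7.18 in clone 6, 5.99 in clone 1, 4.87 in clone 14, 3.41 in clone 13, 3.30 in clone 8 and 1.46 in clone 17. Summed, the pair followed the order of the whole family, with clone 11 at 7.15 times the level of clone 17 (4.56 to 12.3). The part of read assignment in the differences between Zscan4c and Zscan4f was not tested.

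**Figure D3:**
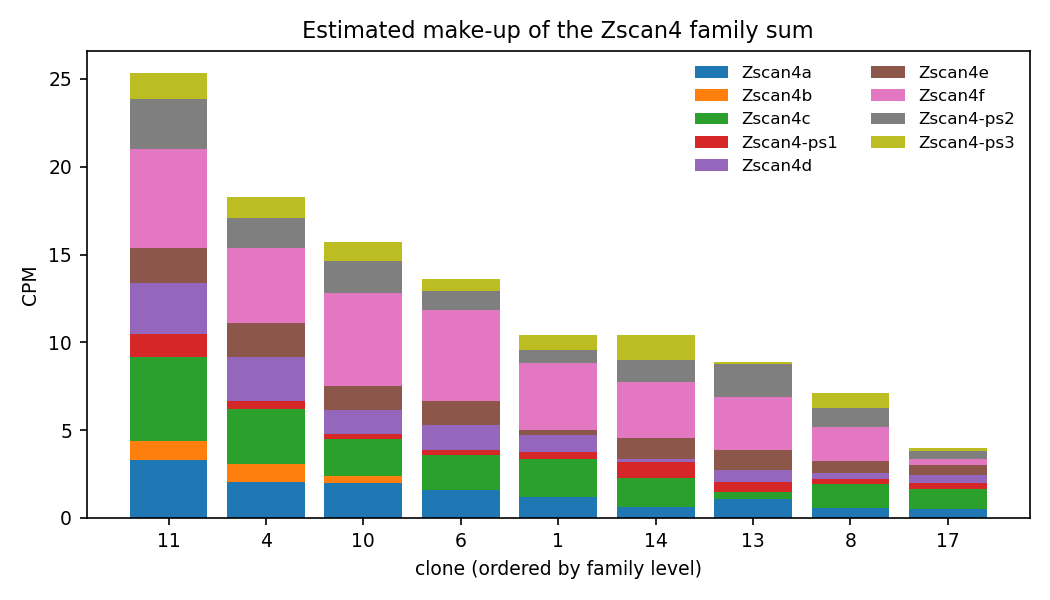
Estimated level of each Zscan4 member in CPM, stacked for each of the 9 clones in the order of the family sum. Zscan4f is the largest layer in 8 clones, and in clone 17 it falls to 0.360 CPM, below Zscan4c at 1.10 CPM.

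The other members were at lower levels. Zscan4e was at 1.96 CPM in clone 11, 1.18 in clone 14 as the median and 0.279 in clone 1, 7.03-fold (2.07 to 34.4). The value in clone 1 rests on 2.86 counts, below the limit of 3. Its estimated counts fell on its shorter transcript (1722 bases) in clones 1, 14 and 8 and on the longer (1745 bases) in the other 6 clones. This all-or-none split lay between near-identical transcripts of 1 gene, and the part of read assignment in it was not tested. Zscan4a, typed as a pseudogene, was at 3.28 CPM in clone 11, 1.21 in clone 1 as the median and 0.512 in clone 17, a 6.41-fold difference (2.93 to 17.1) in the order of the family at its ends. Zscan4-ps2 was at 2.88 CPM in clone 11, 1.25 in clone 14 as the median and 0.444 in clone 17, 6.47-fold (2.81 to 19.2). Both folds lay near that of the family sum, 6.34.

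Zscan4-ps3 was at 1.45 CPM in clone 11, 0.864 in clone 1 as the median and 0.142 in clone 13, 10.3-fold (2.37 to 85.5). The value in clone 13 rests on 1.87 counts, below the limit of 3. Zscan4-ps1 was at 1.31 CPM in clone 11, 0.451 in clone 1 as the median and 0.243 in clone 10, 5.39-fold (1.8 to 32.2), and so was low in a clone where the family was high. Zscan4b was assigned counts in clones 11, 4 and 10 only, at 1.10, 0.998 and 0.434 CPM, and had 0 in the other 6. These 3 members rest on few counts, 106 for Zscan4-ps3, 66.9 for Zscan4-ps1 and, on its longer and shorter transcripts, 28.9 and 5.99 for Zscan4b, summed over all clones.

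The genes around the cluster on chromosome 7 varied in both directions, and their median did not move with the family between clones 11 and 17. None of the 41 other genes of the tables that lie between Zscan4a and Zscan4-ps3 had a mean of 1 CPM. Within 2 Mb of the cluster 26 other genes had one, with a median range of 0.81, beside 0.78 for all genes, and 1 of the 26 had a range of 2 or more, beside 7.92% of all genes. As a median over these neighbours, the deviation from each gene's mean over clones was -0.09 log2 in clone 11 and 0.09 in clone 17, whereas the family deviated by 1.17 in clone 11 and by -1.45 in clone 17. Whatever their distance, the nearest expressed genes were Clcn4, a chloride-proton exchanger gene, Zik1, a zinc finger gene, and Gm45844 on the proximal side, of which only Zik1 lies within 2 Mb, and the vomeronasal receptor genes Vmn1r75, Vmn1r76 and Vmn1r81 on the distal side. The range over clones was 1.39 for Gm45844, 1.10 for Vmn1r75, 1.07 for Clcn4, 1.05 for Vmn1r76, 0.85 for Vmn1r81 and 0.68 for Zik1. Clcn4 was highest in clones 11 and 10, at 12.0 and 11.7 CPM, whereas Gm45844 and Vmn1r75 were highest in clone 17, at 7.97 and 3.22 CPM. Over all 1060 chromosome 7 genes that passed, the median deviation lay between -0.04 in clone 11 and 0.04 in clone 14.

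**Figure D4:**
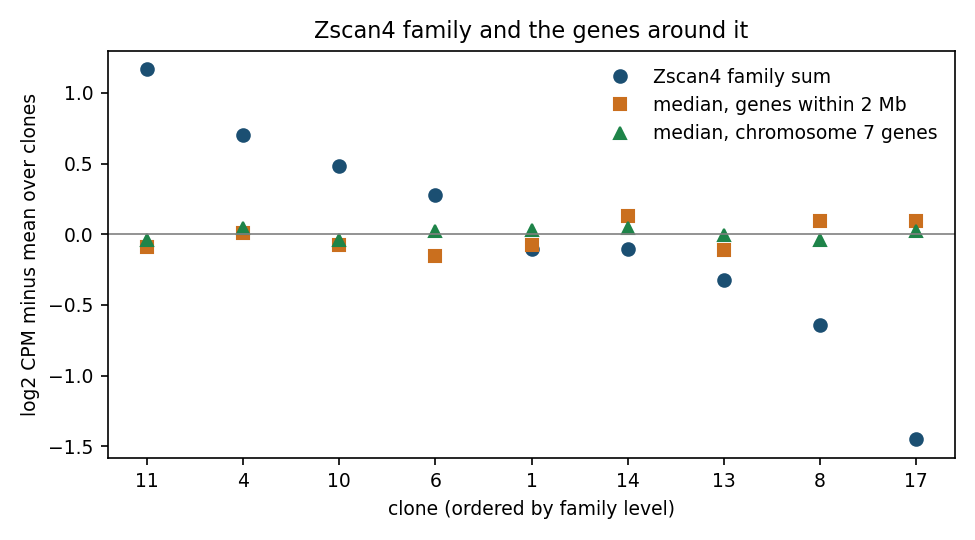
Deviation from the mean over clones (log2 CPM) for each clone, for the Zscan4 family sum, for the median of 26 genes within 2 Mb and for the median of 1060 genes of chromosome 7. The family runs from 1.17 in clone 11 to -1.45 in clone 17, and both medians stay near 0.

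Genes that act upstream of the state had narrower ranges than the family. Dux was looked up as Duxf3, which was near 0 in all clones, at no more than 0.149 CPM and below 3 counts everywhere. Of 8 upstream genes in the tables, 7 had a mean of 1 CPM or more, and 0 of them had a range of 1 or more, against 35.3% of all genes, with a median of 0.71. Dppa2, a chromatin-binding activator of Dux, was at 76.9 CPM in clone 11 and 84.7 in clone 17, and its highest level was 96.8 in clone 8. Its partner Dppa4 was at 95.4 CPM in clone 11 and 173 in clone 17, so that the clone with most Zscan4 had least Dppa4. Smad7, an inhibitor of TGF-beta signalling, had the widest range of this list, 0.87, followed by Dppa4 at 0.86 and Zmym2, a transcriptional corepressor, at 0.78. Trp53, which encodes p53, was at 401 CPM in clone 11 and 267 in clone 17, and Usp7, a deubiquitinase of the p53 pathway, at 526 in clone 11 and 599 in clone 17.

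Genes known as repressors or silencers of the state also had a smaller median range than all genes. Of 34, 33 had a mean of 1 CPM, 0 reached a range of 2, beside 7.92% of all genes, and 3 reached 1, beside 35.3%, and the median was 0.63, beside 0.78. The 3 were Ncl, Tet2 and Hdac1. Ncl, nucleolin, was at 1395 CPM in clone 11 and 439 in clone 1 (3.18-fold), Tet2, a methylcytosine dioxygenase, at 76.1 CPM in clone 11 and 173 in clone 17, and Hdac1, a histone deacetylase, at 264 CPM in clone 14 and 126 in clone 1. Tet2 was thus lowest in the clone with the highest Zscan4 level, and higher in clones 8 and 17 than in any other clone. Trim28, the KAP1 corepressor, was at 4311 CPM in clone 4, the highest, and 2466 in clone 17, the lowest. Sumo2, a SUMO modifier, was at 490 CPM in clone 10 and 311 in clone 17, and Zfp42, the Rex1 gene, at 873 CPM in clone 4 and 488 in clone 11.

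Other genes that mark the 2-cell-like state were, in many cases, near the detection limit. Of 45 listed genes 44 were in the tables, 42 had a count in some clone, and 14 had a mean of 1 CPM or more. Among these 14, the range was at least 2 in 7 genes and at least 1 in 12, and its median was 2.05, beside 7.92%, 35.3% and 0.78 for all genes. In clone 17, 13 of the 14 were below their own median, where 44.5% of all genes were, and in clone 8 it was 11 of 14, where 46.7% of all genes were. In clone 11, 11 of the 14 were above their own median, where 42.3% of all genes were. In clones 4 and 6 it was 10 of 14 each, beside 45.1% and 42.7%. The remaining clones did not follow the order of the family. In clone 10 only 7 were above, beside 42.7%, in clone 13 it was 8, beside 42.8%, and in clone 1 it was 5, beside 47.1%. In clone 14, 10 were below, beside 43.5%. The list holds no Zscan4 gene, and some of its members are near-identical copies whose own values are uncertain. Neither this list nor those of upstream genes and repressors was set beside genes of like level. Among the markers Gm8994 averaged 1.26 CPM and Calcoco2 108, and the upstream gene Usp7 averaged 582. The part of level in the ranges of these lists was not tested.

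Gm2016 had the widest range of the list, 4.61, with 3.49 CPM in clone 4 and 0 in clone 1 (at least 12.0-fold higher, against a floor of 3 counts in clone 1). Duxbl3, of a family related to Dux, was at 6.99 CPM in clone 11 and 0.448 in clone 8 (15.6-fold, 7.24 to 45.5), while its related copies differed, with Duxbl2 at 8.73 CPM in clone 4, 1.35 in clone 11 and 1.31 in clone 17, and Duxbl1 at no more than 1.35 CPM, in clone 8. Duxbl3 was thus high in clone 11, where Duxbl2 was low. The Duxbl copies were not summed, and the part of read assignment in their differences was not tested. Gm8994 was at 2.52 CPM in clone 6 and 0.113 in clone 17 (22.3-fold, 4.50 to 150). The top clone thus differed between these genes. Calcoco2, an autophagy receptor, was far more abundant, at 157 CPM in clone 4 and 45.3 in clone 17 (3.47-fold, 3.17 to 3.80). Eif1a, a translation initiation factor, and Zfp809, a silencer of retroviruses, were also among the most abundant of the list, but had ranges of only 0.40 and 0.60, and Eif1a was highest in clone 8. The 30 markers under 1 CPM summed to 13.6 CPM in clone 11, 12.4 in clone 6, 10.5 in clone 10, 10.3 in clone 4, 8.53 in clone 13, 7.16 in clone 1, 6.49 in clone 14, 5.68 in clone 8 and 3.57 in clone 17. This sum was highest in clone 11 and lowest in clone 17, as the family was, and clones 11, 6, 10 and 4 were the upper 4 in both.

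Genes of telomere maintenance and recombination, to which Zscan4 is functionally tied, varied gene by gene. Of 23 listed, 21 had a mean of 1 CPM, 2 had a range of 2 or more and 9 of 1 or more, with a median of 0.88, which is near the 7.92%, 35.3% and 0.78 of all genes. Rad50, a subunit of the MRN complex that processes DNA breaks, was at 170 CPM in clone 4, 147 in clone 10, 145 in clone 6, 144 in clone 13, 131 in clone 1, 127 in clone 11, 62.9 in clone 14, 55.5 in clone 8 and 40.3 in clone 17. The 6 higher clones lay at 127 CPM or above and the 3 lower ones, clones 14, 8 and 17, at 62.9 CPM or below. Rad50 lies on chromosome 11, as do Trp53, Sumo2 and the markers Calcoco2, Tmem92 and Zfp750. All of these were lowest in the same 3 clones, as was Gm8994 on chromosome 6. The part of a shared chromosome in these values, and in the counts of markers in clones 8, 14 and 17, was not tested. Smc1b, a meiotic cohesin subunit, had the widest range, with 5.09 CPM in clone 6 and 0.286 in clone 8 (17.8-fold, 6.68 to 67.2), and was at 2.24 in clone 11. Tbx3, a transcription factor of pluripotency, was at 40.5 CPM in clone 11, 62.6 in clone 13 as the median and 82.9 in clone 17, and was lowest in clone 10 at 25.9 (3.20-fold from clone 17 to clone 10, 2.84 to 3.61). The 3 clones lowest in Tbx3, clones 10, 11 and 4, were the upper 3 in Zscan4, although clone 10 was not resolved from clone 6 there.

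Dnmt3b, a de novo DNA methyltransferase, was at 460 CPM in clone 11, 373 in clone 10, 338 in clone 4 and 198 to 235 in the other 6, so that clones 11, 10 and 4 were highest. Clone 11 had 2.32 times the level of clone 1 (2.21 to 2.44). Tert, the catalytic subunit of telomerase, differed little, with 21.5 CPM in clone 8, the highest, and 16.2 in clone 11, the lowest. Terf1, a telomere-binding shelterin protein, was at 125 CPM in clone 14 and 55.6 in clone 1, and at 114 in clone 11 and 106 in clone 17. Rif1, a replication-timing factor that also represses Zscan4 in mouse stem cells, was at 1088 CPM in clone 8, 593 in clone 1, 726 in clone 11 and 886 in clone 17. Uhrf1, which recruits maintenance DNA methylation, had a range of 0.44 and Dnmt3l, a cofactor of de novo methylation, one of 0.78.

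The genes whose pattern over the 9 clones lay nearest to the family were found by the root mean square difference of centred log2 CPM values, over 13372 genes. A gene that did not vary would have a distance of 0.73, and the median over all genes was 0.77. The 10 nearest were Gm21761 on chromosome 13 (distance 0.20), Boll on chromosome 1 (0.21), Lama3 on chromosome 18 (0.26), Gm21304 on chromosome 10 (0.27), Ror1 on chromosome 4 (0.28), Tnfrsf19 on chromosome 14 (0.28), Ccno on chromosome 13 (0.30), Stmn2 on chromosome 3 (0.32), and Gm6763 and Gm8764 on chromosome 10 (0.32 each). Gm21761 was at 7.84 CPM in clone 11, 3.85 in clone 13 as the median and 1.56 in clone 17. Boll, an RNA-binding protein of germ cells, was at 1.96 CPM in clone 11, 1.12 in clone 6 as the median and 0.359 in clone 17. Stmn2, a microtubule regulator, was the most abundant, at 123 CPM in clone 4, 78.0 in clone 14 as the median and 38.4 in clone 17. Gm21761 and Gm6763 were themselves on the list of markers of the state. Gm6763 and Gm8764 had the same estimated counts, fractions included, in every clone, so they are 1 measurement listed as 2 genes. They lie beside Gm21304, and whether it shares reads with them was not tested.

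**Figure D5:**
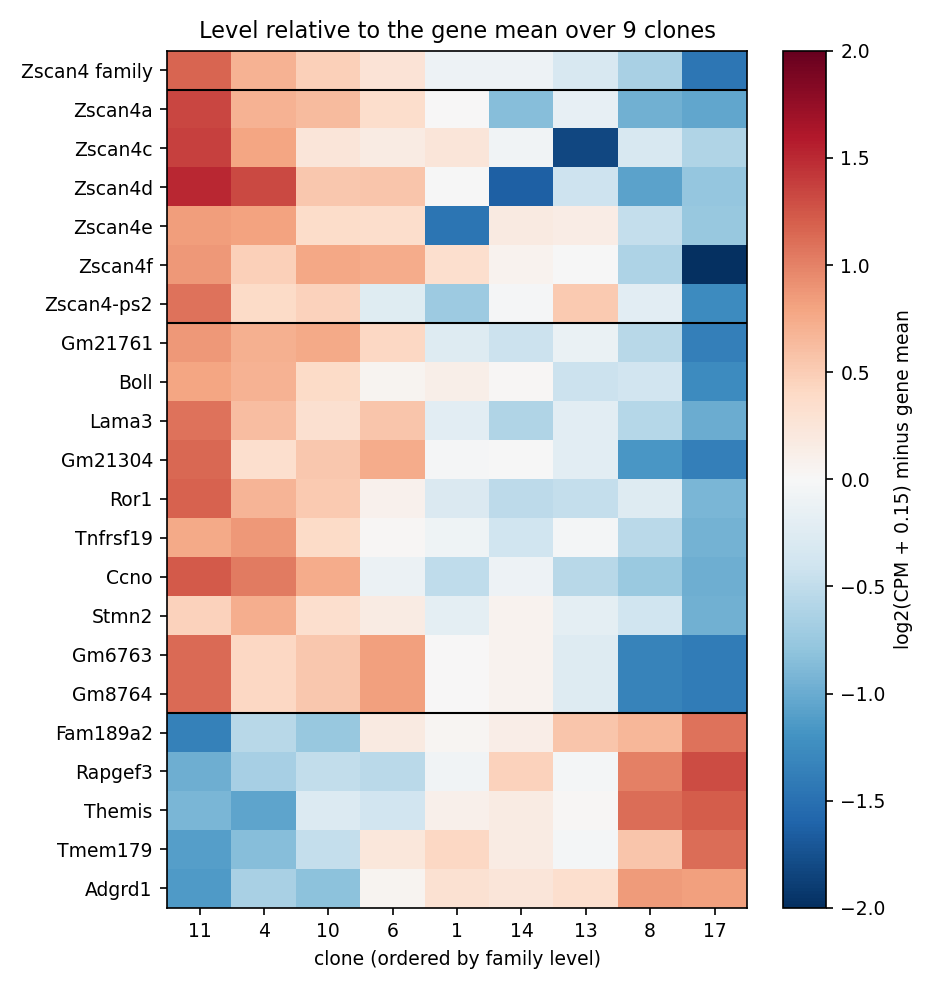
Levels over the 9 clones, in the order of the Zscan4 sum, of the family, the 6 members averaging at least 1 CPM, the 10 nearest genes and the 5 with the nearest opposite pattern, as log2(CPM + 0.15) minus the gene's mean. The nearest genes are high in clone 11 and low in clone 17, and the opposite genes the other way round.

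Which genes were nearest depended on the setting. Under the alternatives 2 to 10 of the 10 remained, and with log2(TPM + 1) 3 remained. The points share their libraries, so nearness over 9 clones describes these libraries only.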

How the data were processed

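Messenger RNA of 9 E14 clones was analysed, 1 library each, made with a TruSeq stranded kit per the labels' protocols. The submitters' processing notes list kallisto 0.43.1 for quantification, Trimmomatic 0.33, FastQC and CASAVA 1.8, and the builds mm10 and GRCm38. Which annotation release was used is not given in these sources. Per the file headers, the tables deposited by the authors hold an estimated count, not always a whole number, and a TPM value for each of 115270 transcripts. Reads that fit several Zscan4 copies are split between them by kallisto, so counts can move from copy to copy.

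GENCODE M21 held 113580 of the transcripts (98.5%), and their estimated counts were added up by gene. The rest, with 0.641 to 0.773% of each library, were not used. Log2 CPM used TMM factors from edgeR 4.0.16 with a prior count of 2, computed on the 13378 genes averaging at least 1 CPM. Counts were rounded for the exact 95% Poisson intervals of levels and the exact conditional intervals of folds. The labels put no clone in a group, so no test between groups was made and all clones are unassigned. Likeness of patterns was the root mean square difference of centred log2 CPM. Shared stretches were counted in the transcripts of GENCODE M21. The range, interval and likeness steps were run on simulated data. The counts simulated for the intervals followed the Poisson model that the intervals assume. No reads were split between copies there, so the uncertainty of that split was not covered. Totals of 10783718 to 14309662 counts limit single members to a few counts in some clones.

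The members and the gene lists were chosen with earlier results of these data known. Genes named are all Zscan4 genes, up to 3 per list of the widest range and of the highest mean TPM, a fixed set (Duxf3, Dppa2, Dppa4, Rif1, Tbx3, Dnmt3b, Tert, Terf1, Pou5f1, Sox2, Nanog), the 10 nearest and 5 opposite patterns, and up to 3 expressed genes on each side of the cluster. Named outside this rule, after their values were seen, were Gm45551, Duxbl1, Duxbl2, Tmem92, Zfp750 and the fibroblast markers Col1a1, Col1a2, Col3a1, Lum, Dcn, Postn, Thy1 and Pdgfra. So were, in the check of the label, Zfp352, Tcstv1, Tcstv3 and Usp17lc. Alternatives were DESeq2 1.42.0 size factors, totals without scaling factors, log2(TPM + 1), a prior count of 0.5, a minimum of 5 CPM or none, protein-coding members without pseudogene names, another measure of likeness and each clone left out. Adding Gm45551 to the family was chosen after seeing the data. R 4.3.3, Python 3.11.15, numpy 2.4.6, pandas 2.3.3, scipy 1.17.1 and Biopython 1.88 were used.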

Additional observations from a re-analysis of the deposited data

How the results depend on the processing

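The summed Zscan4 level of clone 11 over clone 17 lay between 5.60-fold, with the pseudogene Gm45551 added after seeing the data, and 7.84-fold in TPM under the other scalings and sums, and its log2 range between 2.45 and 2.68. Leaving out single clones gave folds of 3.56 to 6.34 and ranges of 1.81 to 2.62. Without clone 17 the fold was 3.56 (clone 11 over clone 8) and the range 1.81. Without clone 11 they were 4.57 (clone 4 over clone 17) and 2.15. The width of the spread thus rested in part on these 2 clones.

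The number of genes with a range of 2 or more was 424 with log2(TPM + 1), 2718 with no filter and 353 with a minimum of 5 CPM, beside 1059, and 887 to 1031 with a clone left out. For a range of 1 or more it was 11610 with no filter and 2415 with 5 CPM, beside 4720, and 4257 to 4624 with a clone left out. With log2(TPM + 1), whose added 1 is large beside these levels, the log2 ranges of the members were smaller, for example 2.60 for Zscan4f, 1.8 for Zscan4c and 1.43 for Zscan4d, and that of Zscan4b was 4.94 with a prior count of 0.5. Of the 10 nearest genes 3 remained with log2(TPM + 1), 2 with 5 CPM and 4 to 9 with a clone left out. List medians stayed within 1.46 to 2.26 for the markers, 0.48 to 0.75 for the upstream genes, 0.52 to 0.64 for the repressors and 0.68 to 0.91 for the telomere genes. In the family sum clone 11 was highest and clone 17 lowest under each alternative that kept both, but in TPM clone 10 stood above clone 4, and clones 14 and 13 above clone 1. No paired analysis was possible because the clones carry no groups. Depth limits the members most: several rest on fewer than 10 counts in a clone, and whether the reads of 1 member were assigned to another was not tested.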

Other observations

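A pattern opposite to the Zscan4 family, low in clone 11 and high in clone 17, was found most closely in Fam189a2 (distance 0.24 to the sign-turned family), Rapgef3 (0.25), Themis (0.26), Tmem179 (0.26) and Adgrd1 (0.29). Rapgef3, a cAMP-activated exchange factor known as Epac1, was at 2.80 CPM in clone 11, 5.36 in clone 1 as the median and 14.2 in clone 17. Themis, known from T cell development, was at 1.05 CPM in clone 11, 2.16 in clone 13 as the median and 5.15 in clone 17. Fam189a2 was at 2.31 CPM in clone 11, 6.71 in clone 14 as the median and 13.1 in clone 17. Adgrd1, an adhesion receptor, was highest in clone 8 and not in clone 17, at 2.64 and 2.59 CPM. These genes lie on chromosomes 19, 15, 10, 12 and 5, none of them on the chromosome of the Zscan4 cluster.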
